A study of Mus musculus with 6 samples.

Results

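The transcripts described here are those of 8 genes of the extracellular matrix: the fibrillar collagen genes Col1a1, Col1a2, Col3a1 and Col5a1, the network-forming collagen genes Col6a1, Col6a2 and Col4a1, and the fibrillin gene Fbn1. Their levels were read in TM4, an immortalized mouse cell line of Sertoli origin, the somatic cells that nurse developing germ cells in the testis. One group of 3 samples had received 4 pooled small interfering RNAs (siRNAs) against the GATA-family transcription factor gene Gata4, which acts in the gonads and the heart. The other 3 samples had received a single non-targeting (NT) siRNA. In both groups the siRNA stood at a final 0.1 µM and was delivered with Lipofectamine RNAiMAX, and no untransfected cells were analysed here. The cells were at passage 12 by their labels and at passage 13 by the protocol. The design text numbers the controls 3 to 6, so the sample titles, which give 3 samples a group, were followed.

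The 8 genes were picked by name from 2004 genes that the authors' deposited list of changed probes names. That list was made from the same Gata4 siRNA and NT siRNA arrays, so a difference between the groups was a condition of entry. The fold changes of the 8 genes are therefore given as descriptions, with no p-value. Each gene has 1 probe in that list, and all 8 probes were above the noise floor of 17.1 intensity units on all 6 arrays. Values are normalized intensities on a linear scale, and levels of different genes are not compared because probes differ in brightness.

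Collagens are secreted as trimers of chains that wind around each other. Chains α1(I) and α2(I), from Col1a1 and Col1a2, form type I collagen, the main protein of tensile fibrils, and Col3a1 encodes the chain of type III collagen, which lies in the same fibrils in soft tissue. Type V collagen, with its α1(V) chain from Col5a1, nucleates these fibrils and sets their width. Type VI collagen forms beaded microfilaments close to cells, type IV collagen is the meshwork of basement membranes such as the one on which Sertoli cells sit, and fibrillin-1 builds microfibrils that hold elastin and latent TGF-beta.

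The siRNAs are shown because they are the agents that differed between the groups. The protocol lists them 5′ to 3′ without saying which strand they are, and gives no target positions.
Gata4 pool 1: agagaauagcuucgaacca
Gata4 pool 2: ggauauggguguuccgggu
Gata4 pool 3: cugaauaaaucuaagacgc
Gata4 pool 4: ggacauaaucaccgcguaa
non-targeting: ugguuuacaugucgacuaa

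Promoter windows are shown because all 8 transcripts were lower in the same group. RefSeq windows (build GRCm38.p6) run from 250 bases before to 50 bases after a gene's start. Of the 8 genes 7 matched, with 8 windows in all, and Col1a1 did not. Printed are the windows of Col3a1 (chr1:45311288-45311587, plus strand), Col1a2 (chr6:4505368-4505667, plus strand) and Fbn1 (chr2:125506389-125506688, minus strand), which had the largest differences among the genes matched, and of Col5a1 (chr2:27886175-27886474, plus strand), which had the smallest. Capitals mark 4 motifs searched on both strands: GATA; CCAAT; the GC box, spelled GGGCGG; and the TATA box, spelled TATAAA. A match on the other strand shows as its reverse complement, and no matches of different motifs overlapped in these windows.
Col1a2: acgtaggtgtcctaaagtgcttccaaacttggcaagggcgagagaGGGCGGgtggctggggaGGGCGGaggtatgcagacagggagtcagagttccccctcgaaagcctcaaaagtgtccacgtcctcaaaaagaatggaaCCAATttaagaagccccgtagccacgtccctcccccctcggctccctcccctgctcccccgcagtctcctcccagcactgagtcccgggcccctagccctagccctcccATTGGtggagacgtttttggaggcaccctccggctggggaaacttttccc
Col3a1: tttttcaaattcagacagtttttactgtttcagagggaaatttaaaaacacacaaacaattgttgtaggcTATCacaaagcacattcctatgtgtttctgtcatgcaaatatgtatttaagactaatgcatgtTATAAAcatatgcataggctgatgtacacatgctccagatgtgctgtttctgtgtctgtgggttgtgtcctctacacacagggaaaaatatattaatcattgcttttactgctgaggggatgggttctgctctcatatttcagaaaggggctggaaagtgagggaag
Fbn1: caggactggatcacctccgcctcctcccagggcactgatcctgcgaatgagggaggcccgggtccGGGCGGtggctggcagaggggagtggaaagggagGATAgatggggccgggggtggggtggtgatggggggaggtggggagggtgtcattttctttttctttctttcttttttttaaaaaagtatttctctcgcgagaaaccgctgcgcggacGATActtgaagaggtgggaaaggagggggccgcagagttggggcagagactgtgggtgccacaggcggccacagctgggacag
Col5a1: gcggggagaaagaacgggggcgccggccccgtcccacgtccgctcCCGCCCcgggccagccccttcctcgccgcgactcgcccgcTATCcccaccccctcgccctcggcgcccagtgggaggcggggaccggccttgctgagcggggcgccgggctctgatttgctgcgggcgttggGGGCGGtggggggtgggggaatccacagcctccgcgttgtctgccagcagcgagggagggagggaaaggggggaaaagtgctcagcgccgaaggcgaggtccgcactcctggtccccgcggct

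The windows differed in which of these motifs they held. Of the 8 windows 4 held GATA on either strand, those of Col3a1, Col5a1, Fbn1 and 1 of the pair of Col6a2 windows, against 57.9% of all 32851 windows. The Fbn1 window held it at 151 and 33 bases before the start, the Col3a1 window at 180 bases and the Col5a1 window at 165 bases. CCAAT stood in the windows of Col1a2 and Col4a1, against 37.4% of all windows. The GC box was in 6 of the 8 windows, against 35.7% of all windows. These are windows of 5 of the 7 genes, since both Col6a2 windows, which overlap, held it. The share was not adjusted for GC content. TATAAA was in the window of Col3a1 alone, against 13.6%. The Col6a1 window held none of these motifs. GC content was 37.7% for Col3a1, 61.0% for Col1a2, 60.3% for Fbn1 and 75.0% for Col5a1, against a median of 52.7% over all windows. Of all windows, 6.6% had less GC than that of Col3a1 and 96.1% less than that of Col5a1. A match is a stretch of letters in these windows and does not locate a bound site.

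Transcripts of all 8 genes were lower on the 3 Gata4 siRNA arrays than on the 3 NT siRNA arrays, with no overlap between the groups. Lower groups without overlap were found for 16.2% of the 17740 probes tested, and the way the genes were chosen makes such a separation likely. Their mean intensities in Gata4 siRNA cells ran from 42.2% to 82.0% of those in NT siRNA cells. The median log2 fold change of the 8 genes was -0.82, against 0.01 over all probes tested and 0.27 over the 1991 named genes tested. At an adjusted p under 0.05 (limma over all probes), 4 of the 8 genes were called lower, Col1a1, Col1a2, Col3a1 and Fbn1, against 4.71% of all probes (8.78% called in either direction) and 29.5% of named genes. Nothing is read from that count, since the same contrast chose the genes. In RNA from whole cultures, fewer cells that make a transcript and less transcript per cell cannot be told apart.

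**Figure D1:**
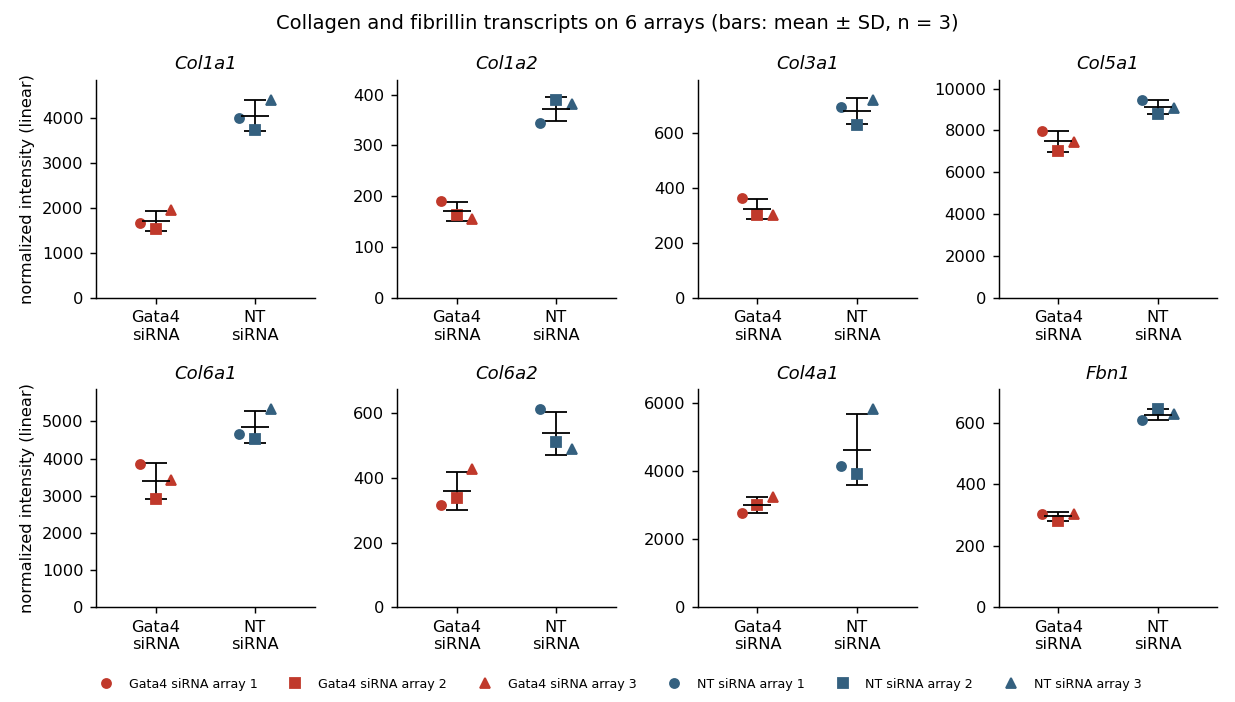
Normalized intensity (linear scale, starting at 0) of the 8 probes on each Gata4 siRNA array (red, left) and NT siRNA array (blue, right), with mean ± SD (n = 3). In every panel the 3 Gata4 siRNA points lie below the 3 NT siRNA points. The gap is wide for Col1a1, Col1a2, Col3a1 and Fbn1, and Col4a1 has 1 high NT siRNA point at 5812.4.

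Type I collagen showed the largest difference. The Col1a1 probe, for the α1(I) chain, read 1657.5, 1522.0 and 1940.4 on Gata4 siRNA arrays 1 to 3, against 4004.6, 3722.1 and 4408.2 on NT siRNA arrays 1 to 3. The highest Gata4 siRNA array was thus 1781.7 units below the lowest NT siRNA array. The mean was 1706.6 ± 213.5 in Gata4 siRNA cells and 4045.0 ± 344.8 in NT siRNA cells (SD, n = 3 each), or 42.2% of the NT siRNA level, with a log2 fold change of -1.24 ± 0.14 (SE).

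The partner chain α2(I), from Col1a2, was lower to a similar degree. Its probe read 190.7, 163.2 and 155.6 in Gata4 siRNA cells, against 344.4, 390.1 and 380.6 in NT siRNA cells. Array 1 was the highest of the Gata4 siRNA arrays and the lowest of the NT siRNA arrays. The mean was 45.7% of the NT siRNA mean, and the log2 fold change was -1.06 ± 0.13. Between the chains of type I collagen the log2 fold changes differed by -0.18 ± 0.18 (Col1a1 minus Col1a2, SE), no more than the error.

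Col3a1, the type III chain, read 365.2, 300.8 and 302.9 in Gata4 siRNA cells, against 694.0, 630.9 and 723.0 in NT siRNA cells. Again Gata4 siRNA array 1 was the highest of its group, and it lay 265.7 units below the lowest NT siRNA array. The mean was 323.0 ± 36.6 in Gata4 siRNA cells and 682.6 ± 47.1 in NT siRNA cells, with a log2 fold change of -1.05 ± 0.13.

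The third fibrillar type differed far less. Col5a1, for the α1(V) chain, read 7984.4, 7014.8 and 7424.9 in Gata4 siRNA cells, against 9478.1, 8774.0 and 9096.2 in NT siRNA cells. The groups were apart by 789.6 units, and the Gata4 siRNA mean was 82.0% of the NT siRNA mean. Its log2 fold change of -0.29 ± 0.11 was the smallest of the 8 and was not called. The fold changes of Col1a1 and Col5a1 differed by -0.95 ± 0.12, and the log ratio of these probes on each array separated the groups.

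Fibrillin-1 was lower with the least scatter. Fbn1 read 304.9, 279.3 and 303.5 in Gata4 siRNA cells, against 607.5, 644.1 and 628.7 in NT siRNA cells. The 3 values of each group lay close together, and the Gata4 siRNA mean was 47.2% of the NT siRNA mean. Its log2 fold change was -1.04 ± 0.11, and it differed from that of Col3a1 by less than the SE of 0.10. The replicate SD of Fbn1 was 0.056 on the log2 scale, and only 3.0% of the 500 probes nearest to it in level had a smaller one (median 0.16). Fbn1 came from a list of changed probes and the 500 probes were not chosen that way, so this rank is a description only.

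The type VI chains gave smaller differences. Col6a1, for α1(VI), read 3863.7, 2918.7 and 3413.5 in Gata4 siRNA cells, against 4673.3, 4532.8 and 5329.0 in NT siRNA cells. Col6a2, for α2(VI), read 317.5, 337.6 and 427.5 in Gata4 siRNA cells, against 612.3, 510.2 and 490.1 in NT siRNA cells. In Col6a2 the highest Gata4 siRNA value, on array 3, was 62.6 units below the lowest NT siRNA value, also on array 3. The means were 70.1% of the NT siRNA mean for Col6a1 and 67.1% for Col6a2. Their log2 fold changes, -0.52 ± 0.14 and -0.56 ± 0.15, were not called and differed by less than their SE of 0.23. In the RefSeq table these genes are neighbours on chromosome 10.

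Type IV collagen, the basement membrane type, was lower with the most scatter. Col4a1, for α1(IV), read 2756.3, 3016.0 and 3229.7 in Gata4 siRNA cells, against 4133.4, 3917.3 and 5812.4 in NT siRNA cells. The groups were apart, but NT siRNA array 3 stood far above the other NT siRNA arrays. The log2 fold change was -0.60 ± 0.17, not called, and -0.42 without NT siRNA array 3. The replicate SD of 0.232 was larger than that of 92.4% of the 500 probes of like level (median 0.124). That array also had the lowest weight when arrays were weighted by their scatter over all probes, 0.379, against 0.786 to 1.97 for the others.

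Ranked by log2 fold change the 8 genes ran Col1a1, Col1a2, Col3a1, Fbn1, Col4a1, Col6a2, Col6a1 and Col5a1. Most neighbours in that order differed by less than 2 SE. Only the steps between Fbn1 and Col4a1 (-0.44 ± 0.20) and between Col6a1 and Col5a1 (-0.23 ± 0.10) exceeded 2 SE, and of these only the second had array log ratios that separated the groups. With 3 arrays a group 2 SE is a lenient mark, and the order was sorted on the same fold changes. These steps are descriptions of values that chose the genes, and they do not set neighbours apart.

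**Figure D2:**
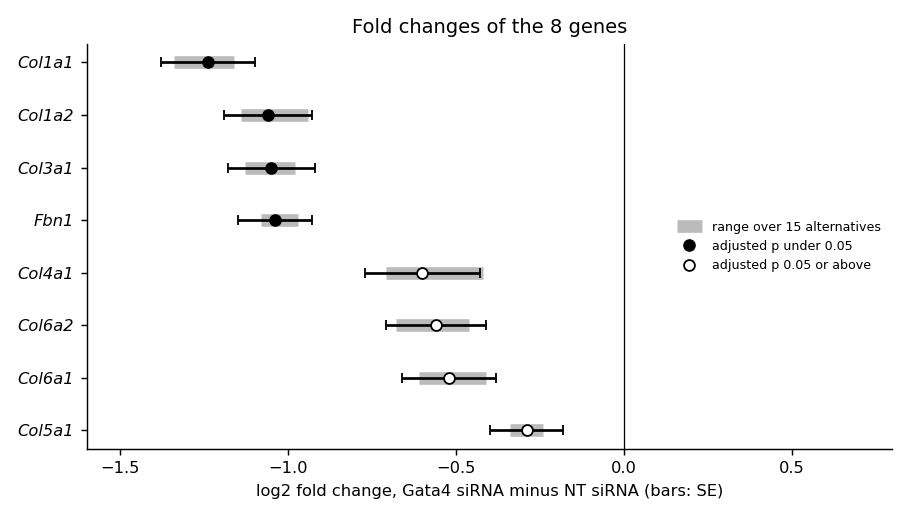
Log2 fold change (Gata4 siRNA minus NT siRNA) of each gene, with its SE, ordered from the largest difference at the top. Filled points mark an adjusted p under 0.05, and grey bands span the 15 other settings of the analysis. Col1a1, Col1a2, Col3a1 and Fbn1 lie between -1.24 and -1.04, and the other 4 between -0.60 and -0.29, with every band below 0.

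Within a group the genes did not follow a single array. Among Gata4 siRNA arrays, array 1 was the highest for Col1a2, Col3a1, Col5a1, Col6a1 and Fbn1, and array 3 the highest for Col1a1, Col6a2 and Col4a1. Among NT siRNA arrays, array 3 was the highest for Col1a1, Col3a1, Col6a1 and Col4a1, array 1 for Col5a1 and Col6a2, and array 2 for Col1a2 and Fbn1. Likeness of patterns was measured as the root mean square difference over the 6 arrays between log2 values centred on each gene's mean. By this measure Col1a2 and Fbn1 were the closest pair, at 0.083, followed by Col1a2 and Col3a1 at 0.095 and Col3a1 and Fbn1 at 0.104. Col1a1 and Col5a1 were the farthest apart, at 0.492, and the type VI chains differed by 0.234. As the groups differ in every gene, the measure includes the size of the fold change.

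**Figure D3:**
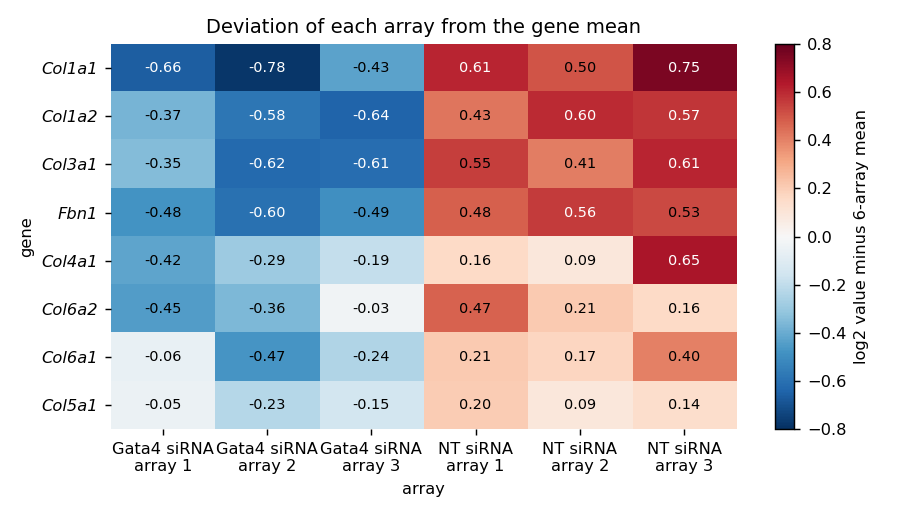
Log2 value of each gene on each array minus its mean over the 6 arrays, from blue (below the mean) to red (above). All Gata4 siRNA columns are below 0 and all NT siRNA columns above it. Col4a1 reaches 0.65 on NT siRNA array 3 against 0.16 and 0.09 on the other NT siRNA arrays, and the value nearest 0 is Col6a2 on Gata4 siRNA array 3 (-0.03).

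Outside the 8 genes, the 5 named genes whose pattern was most like the mean pattern of the set were Idh1, Kdm4b, Chmp3, Bhlhe40 and Tnfaip3, at 0.028 to 0.056 among 1983 genes searched. The 8 genes themselves lay farther from that mean, at 0.136 (Fbn1) to 0.259 (Col5a1). The measure includes the size of the fold change, which was -0.82 to -0.74 for these 5, and does not separate it from variation within a group. Idh1, the cytosolic isocitrate dehydrogenase, read 929.7, 861.5 and 916.6 in Gata4 siRNA cells, against 1501.7, 1464.5 and 1628.1 in NT siRNA cells. Kdm4b, a histone demethylase, averaged 1319.7 ± 117.0 in Gata4 siRNA cells and 2279.8 ± 147.1 in NT siRNA cells. Chmp3 acts in membrane scission, Bhlhe40 is a transcriptional repressor and Tnfaip3 restrains NF-kB signalling. None of the 5 is a matrix gene.

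Genes that act with collagen were read from 8 lists, of collagens, microfibrils, synthesis, binding, receptors, degradation, TGF-beta and regulators of collagen genes. Of 310 genes in these lists 64 were named and 63 tested, of which 28 were called lower, 10 were called higher and 25 did not pass. The median was -0.48. Over all probes 4.71% were called lower and 4.07% higher, and over named genes 29.5% and 25.9%. A list member that the authors had not called has no name here, so the counts are shares of genes already selected for a change. Mmp10, counted among those called higher, passed the noise filter only through the Gata4 siRNA arrays. Of the 38 genes called, 12 kept the call and its direction whichever single array was left out. With Gata4 siRNA arrays 1, 2 and 3 left out in turn the count was 15, 12 and 22, and with NT siRNA arrays 1, 2 and 3 left out in turn it was 16, 20 and 31.

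Of 37 other collagen genes 3 were named. Col4a5, a type IV chain, read 592.1, 599.3 and 612.5 in Gata4 siRNA cells, against 994.8, 894.9 and 985.3 in NT siRNA cells, and fell by 0.66 ± 0.11 (log2, SE; adjusted p = 0.014). Col8a1, of the short-chain type VIII collagen, fell by 0.42 ± 0.11, only just past the threshold (adjusted p = 0.0499), and passed in 8 of 16 settings, against 13 for Col4a5. Col22a1 went the other way, with 213.5, 289.4 and 269.3 in Gata4 siRNA cells against 98.5, 113.4 and 89.7 in NT siRNA cells, and rose by 1.23 ± 0.15 (adjusted p = 0.00524). Neither lower call held without Gata4 siRNA array 1 or 2 or NT siRNA array 1, and 1 of them held without each of the other arrays. Type XXII collagen is known from tissue junctions such as that between muscle and tendon. Collagen genes thus did not all move one way.

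Of 28 genes of microfibrils and elastic fibres 5 were named, with 1 called lower, 1 called higher and 3 not passing. Over named genes 29.5% were called lower and 25.9% higher. Fibulin-1, Fbln1, which binds basement membranes and elastic fibres, averaged 230.5 in Gata4 siRNA cells and 391.0 in NT siRNA cells and fell by 0.73 ± 0.12. It lost the call without Gata4 siRNA array 2 or NT siRNA array 1. Its other probe was lower as well. The latent TGF-beta binding proteins Ltbp1 and Ltbp3, which tether TGF-beta to fibrillin microfibrils, were both at -0.36 (adjusted p = 0.0856 and 0.0953), and Fbln2 was at -0.37 (adjusted p = 0.0991). Adamtsl5, a secreted protein known to bind fibrillin, rose by 1.34 ± 0.15.

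Of 17 named genes of the machinery that makes and matures collagen, from 45 in the list, 11 were called lower, 1 was called higher and 5 did not pass. The median was -0.66, and over named genes 29.5% were called lower. The 11 lower calls became 5, 4 and 8 with Gata4 siRNA arrays 1, 2 and 3 left out in turn, and 5, 6 and 8 with NT siRNA arrays 1, 2 and 3 left out in turn. Pycr1, which makes proline, read 78.8, 74.8 and 66.8 in Gata4 siRNA cells, against 169.5, 178.2 and 160.7 in NT siRNA cells, and fell by 1.05 ± 0.12. Loxl2, a lysyl oxidase that crosslinks collagen and whose probe was named through its gene number, fell by 0.88 ± 0.14. The prolyl 3-hydroxylase P3h1 fell by 0.87 ± 0.11 and Adamts2, which removes the amino propeptide of procollagen, fell by 0.86 ± 0.13. The 1 gene called higher, named after its values were seen, was Pcolce2, an enhancer of procollagen trimming at the other end. It rose by 0.60 ± 0.12 and lost the call without Gata4 siRNA array 1 or 2 and without NT siRNA array 1 or 2. The 5 that did not pass were Plod2 at -0.66, Sec24d at -0.58, Ppib at -0.31, Pcolce at -0.27 and Ctage5 at 0.37 (adjusted p = 0.0609, 0.0657, 0.125, 0.159 and 0.11).

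Of 11 named genes for proteins that bind collagen, from 52 in the list, 4 were called lower, 2 were called higher and 5 did not pass. Over named genes 29.5% were called lower and 25.9% higher, so nothing is read from this split. The 4 lower calls became 1 to 3 with single arrays left out (1 without Gata4 siRNA array 2, and 2 without Gata4 siRNA array 1, NT siRNA array 1 or NT siRNA array 2). The 2 higher calls became 1 when any single array other than NT siRNA array 3 was left out. Ccn2, a matricellular protein, fell by 0.94 ± 0.11 and osteoglycin, Ogn, fell by 0.72 ± 0.11. Tenascin-X, Tnxb, which links collagen fibrils, averaged 131.9 in Gata4 siRNA cells and 38.3 in NT siRNA cells and rose by 1.45 ± 0.15. Tenascin-C, Tnc, rose by 0.66 ± 0.15.

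Of 5 named collagen receptor genes, from 26, Antxr2 rose by 1.42 ± 0.17, Antxr1 fell by 0.66 ± 0.14 and 3 did not pass. Shares over named genes were 29.5% lower and 25.9% higher. Antxr1 and Antxr2 are the anthrax toxin receptors, which bind collagens. Antxr1 lost its call without Gata4 siRNA array 1, 2 or 3 or NT siRNA array 1. In the degradation list 5 of 43 genes were named and 4 tested. Mmp10, a matrix metalloproteinase, read 340.8, 400.8 and 296.2 in Gata4 siRNA cells, against 16.4, 0.2 and 15.7 in NT siRNA cells, where no array was above the noise floor. It was called higher, but it passed the filter for testing only through the Gata4 siRNA arrays, the group where it was high. Plau, the urokinase that starts plasmin-driven proteolysis, rose by 0.83 ± 0.12, Mmp23 fell by 0.89 ± 0.14, a call lost without Gata4 siRNA array 1 or 2, and the inhibitor Timp2 was at -0.53 (adjusted p = 0.0584).

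Of 13 named genes of the TGF-beta pathway, a known inducer of collagen genes, 7 were called lower and 6 did not pass, from 38 in the list. Over named genes 29.5% were called lower. The 7 lower calls became 1 without Gata4 siRNA array 1, 2 or 3, 2 without NT siRNA array 1 or 2 and 5 without NT siRNA array 3. Ccn2, Ltbp1 and Ltbp3 are also in the lists above. Smad6, an inhibitory Smad above the noise floor on 5 of 6 arrays, fell by 0.97 ± 0.18 and the secreted glycoprotein gene Fstl1 fell by 0.72 ± 0.14. Fstl3, which binds activins, fell by 0.57 ± 0.15. As the list also holds inhibitors such as Smad6, its count gives no direction of TGF-beta signalling, which was not tested. Of the 6 that did not pass, the receptor gene Tgfbr2 at -0.35, Smad2 at -0.33, Ltbp1 and Ltbp3 were below 0 (adjusted p = 0.0867 for Tgfbr2 and 0.101 for Smad2). Pmepa1 at 0.45 and Zeb2 at 0.28 were above 0 (adjusted p = 0.062 and 0.16). Among 47 transcription factors and RNA-binding proteins reported to act on collagen genes 8 were named, 2 called lower and 2 higher. Shares over named genes were 29.5% lower and 25.9% higher. These counts use the brightest probe of a gene, and Fosl2 had probes of both signs. Its brightest was at 0.37 and not called (adjusted p = 0.0741), and its other probe was called lower at -1.57 (adjusted p = 0.0215). Klf4 fell by 1.66 ± 0.24. Its Gata4 siRNA values of 21.6, 43.4 and 49.7 were near the noise floor of 17.1, and its log2 fold change ran from -2.06 to -1.2 over the other settings. Creb3l2, a membrane-bound factor of the secretory pathway, fell by 0.47 ± 0.12, while Sox9 rose by 0.59 ± 0.11 and Mybl2 by 0.58 ± 0.11. Both higher calls were lost when any single array other than NT siRNA array 3 was left out, and the lower count was 1 whichever array was left out. The calls of Tnc and Creb3l2 held in 8 of 16 settings, those of Antxr1, Sox9 and Mybl2 in 10, those of Pcolce2 and Fstl1 in 11, that of Fstl3 in 8 and that of Smad6 in 12.

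**Figure D4:**
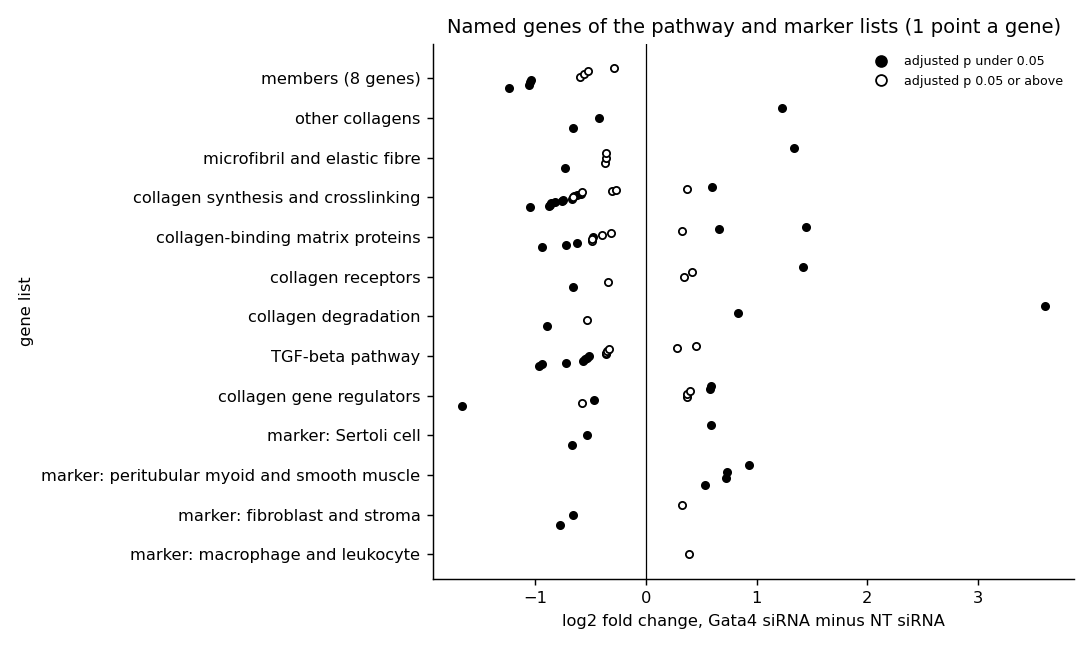
Log2 fold change (Gata4 siRNA minus NT siRNA) of each named gene, 1 point a gene, in the pathway and marker lists, with the 8 genes on the top line. Filled points have an adjusted p under 0.05. The points of collagen synthesis lie mostly below 0, with 11 called lower of 17. The far right point is Mmp10, which passed the noise filter only through the Gata4 siRNA arrays.

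Named markers of Sertoli and other cell types did not all move one way. A marker that the authors had not called has no name here, and over named genes 25.9% were called higher and 29.5% lower. Of 15 peritubular myoid and smooth muscle markers 4 were named and all 4 were called higher (Acta2, Tagln, Actg2 and Mylk). The 4 became 1, 0 and 3 with Gata4 siRNA arrays 1, 2 and 3 left out in turn, and 1, 2 and 3 with NT siRNA arrays 1, 2 and 3 left out in turn. Their summed intensity was 18912 to 21318 on Gata4 siRNA arrays and 12757 to 14165 on NT siRNA arrays. Most of it came from the bright Acta2 probe, which averaged 16890.5 in Gata4 siRNA cells and 11686.1 in NT siRNA cells. Of 12 stromal markers 3 were named, with Ly6a and S100a4 called lower and Dcn at 0.33 (adjusted p = 0.11). Their sums were 22658 to 24692 in Gata4 siRNA cells against 25423 to 27589 in NT siRNA cells. Most of these sums came from Ly6a and Dcn, which went opposite ways. Of 30 Sertoli markers 3 were named: Sox9 was called higher, Inhbb and Tjp1 lower, with sums of 2822 to 3012 in Gata4 siRNA cells against 2946 to 3343 in NT siRNA cells. The 2 lower Sertoli calls were lost whichever array was left out, and the 2 lower stromal calls without Gata4 siRNA array 1 or 2 and without NT siRNA array 1 or 2. Among the markers called, Mylk and Inhbb passed in 8 of 16 settings, Tjp1 in 7 and Acta2 and S100a4 in 9. The other Acta2 probes were higher but not called (adjusted p = 0.122, 0.0535 and 0.0596). The part of these markers in the collagen differences was not tested. Of 11 leukocyte markers Cd14 alone was named, at 0.39 (adjusted p = 0.0804), and of the Leydig, endothelial and germ cell lists 0 genes were named. Levels of Gata4 and of the defining Sertoli genes Amh and Wt1 were not analysed here, as no named probe carries them, so the knockdown was not checked by its target.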

How the data were processed

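Biotin-labelled total RNA from TM4 cells was run on Illumina MouseWG-6 v2.0 BeadChips, 1 array a sample, per the labels' protocols. The deposited intensities had been background-subtracted (37.1% lie below 0) and brought to a common distribution, as their near-identical sorted columns show (array medians 6.7 to 6.8). The submitters' processing notes name GenomeStudio, with settings not given in the sources used here. A further 18 per-array columns could not be tied to a label and stayed out.

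Intensities were corrected with normexp (background mean 0, background SD 9.40 from the values below 0), an offset of 16 was added and log2 taken, so differences of dim probes are understated. The noise floor is the size that 95% of the values below 0 do not exceed, and a probe was tested if 3 or more of the 6 arrays exceeded it. The moderated test of limma 3.58.1 (lmFit, eBayes; R 4.3.3) was two-sided, p-values were adjusted by Benjamini-Hochberg over the 17740 probes that passed, and 0.05 was the threshold. Every adjusted p comes from this fit. In simulated data for this comparison with 17740 probes, 9 of 100 probes changed 1.5-fold and 53 of 100 changed 2-fold were recovered, with 3 false calls. Only these probes were changed there, fewer than the 1558 called in the data. The adjustment depends on that share, so recovery in the data may differ. Nothing says that replicates were separate cultures, so p-values may measure technical spread only, and 3 arrays a group limit precision.

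Probe names came from the authors' deposited list of 2415 probes, of which 2414 are in the value table. Through gene numbers and a RefSeq table of GRCm38.p6, used for names, 1740 symbols were current, 468 were updated and 195 kept. Another 12 were left out, 9 where symbol and number disagreed and 3 that had become dates. No fold change or p of that list was used. The brightest probe stood for a gene. Text names all 8 genes, every named collagen and microfibril gene, up to 4 called genes of each other list by size with further members as values, and the 5 genes most alike in pattern. Members and lists were chosen with earlier results of these data known. The alternatives are in the closing section. Figures used matplotlib 3.10.9.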

Additional observations from a re-analysis of the deposited data

How the results depend on the processing

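All 8 genes stayed lower in Gata4 siRNA cells under each of the 15 alternatives, with a median log2 fold change of -0.87 to -0.80 when single arrays were left out and -0.84 to -0.77 otherwise. Col1a1, Col1a2, Col3a1 and Fbn1 were called in all 16 settings and Col5a1 in 0. The number called lower, 4 of 8, was 7 with a constant of 50 added, with an offset of 50, with probes above the floor on all 6 arrays, with an intensity trend and robust variance, and with array weights, where Col6a1, Col6a2 and Col4a1 passed. It was 4 to 5 with single arrays left out, Col6a2 passing without Gata4 siRNA array 3. As the same contrast chose the genes, these calls give no independent support.

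The 1558 changed probes became 734 with intensities floored at 1, 2384 with the trend, 2126 with the constant, 2282 with the offset of 50, 3079 with array weights and 257 to 1602 with single arrays left out: 372 and 257 without Gata4 siRNA arrays 1 and 2, 487 and 723 without NT siRNA arrays 1 and 2. The 38 called genes of the pathway lists were 12 to 31 with single arrays left out and 20 to 56 under the others. The cause of these moves was not tested. Samples with the same replicate number did not deviate together (correlations of -0.055, -0.088 and -0.011), and a replicate block gave 736 probes, 20 pathway genes and 4 of the 8 genes, with 6 genes of collagen synthesis and 3 of the TGF-beta pathway called lower and 2 of the myoid markers called higher. Averaging probes of a gene was not run, since each of the 8 has 1 probe. Counts of the lists rest on the brightest probe of each gene, and Fosl2 has another probe of the opposite sign. Centring arrays on their median gave 1558 probes and called the same 4 of the 8 genes.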
